A study of Mus musculus with 4 samples.

Results

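The genes described are 10 regulators and products of the luminal and alveolar cells of the mammary gland: Elf5, Ehf, Gata3, Foxa1, Kit, Esr1, Pgr, Prlr, Muc1 and Ltf. They were taken by gene symbol from the annotation of the array, with every probe set (a group of probes for 1 transcript) that carried 1 of these symbols. Of the 10, 9 had at least 1 named probe set, 18 probe sets in all, out of 18194 genes that the annotation names on the array. Prlr had no named probe set in the annotation used here and was not analysed here. The probe set of highest mean stood for a gene, and 8 of the 10 passed a filter on low values that kept 12264 genes.

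RNA came from Comma D beta, a mouse mammary epithelial cell line, per the labels. All groups were grown overnight in DMEM F12 that held 2% serum, 5 ug/ml insulin and 10 ng/ml EGF. Doxycycline (dox) was added at 100 ng/ml for 1 day to the treated cells, and treated and untreated cells were then sorted into Sca1+ and Sca1- fractions of 200k cells. The 4 groups are therefore Sca1+ and Sca1- cells of a single line, each without and with dox, with 1 array a group. The labels do not say what dox controls in these cells or whether the line is 1 clone. The series title names Bcl11b, a zinc-finger transcription factor, whose main probe set read 6.87 and 6.29 (log2) in untreated Sca1+ and Sca1- cells and 12.11 and 11.99 with dox.

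The milk-secreting epithelium has an outer basal layer and an inner luminal layer. Luminal cells include hormone-sensing cells, which carry the oestrogen and progesterone receptors and depend on Foxa1 and Gata3, and progenitors of the alveoli, which carry Kit and Elf5. Prolactin acts through its receptor, the kinase Jak2 and the transcription factor Stat5, and with Elf5 drives the alveolar programme that ends in milk proteins. None of this background is a result of these arrays.

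Levels are the log2 values deposited for each probe set. The lowest value on every array was exactly 3.32, the log2 of 10, a floor that held 44.8% to 48.0% of the probe sets. A difference against a floor value is a bound and is written "at least". With 1 array a group there is no replicate spread, so each difference is a description of these arrays, counted when it was 2-fold or more. Levels of different probe sets depend on their own probes and are not set against each other. In RNA from sorted cells, fewer cells of a type and less RNA per cell cannot be told apart. The treated and untreated cells may be 1 culture each, so dox and culture cannot be told apart.

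Of the markers of the labelled epithelium, 5 of 6 luminal and 7 of 9 basal markers passed the filter, as did 12264 of 18194 named genes. Passing it is thus no mark of a cell type. Krt19 among the luminal and Cnn1 and Myh11 among the basal markers were at the floor on all arrays. The summed linear level of the luminal markers was 5788 in untreated Sca1+, 9890 in untreated Sca1-, 4712 in dox Sca1+ and 6631 in dox Sca1- cells. That of the basal markers was 10263, 7022, 7551 and 6684 in the same order. Genes at the floor would give 60 for the luminal and 90 for the basal markers. The actin control probe sets had 3' minus 5' differences of 0.69, 0.81, 0.83 and 0.91 (log2), highest with dox in Sca1- cells; the part of RNA quality in the differences was not tested. Of markers of other cells, 3 of 7 for leukocytes, 3 of 5 for fibroblasts, 1 of 4 for endothelium and 0 of 4 for adipocytes passed the filter. Ptprc, Cd3e, Col1a1, Cdh5, Tek and all named adipocyte markers lay at the floor throughout. The summed level of the leukocyte markers was 67.0, 74.1, 142 and 134 in the order above, and that of the fibroblast markers 58.9, 75.4, 730 and 404. Each sum was higher with dox mostly through 1 gene. Cd68 read 3.37, 3.76, 6.16 and 6.16 (log2), and Dcn 3.32, 3.32, 9.41 and 8.42. In each list this was the 1 of 3 analysed markers at least 2-fold higher in both fractions, against 5.29% of all genes. Dcn passed the filter through its dox arrays only, so a higher dox level was built into its passing. The part of these markers in the dox differences was not tested. The gene that encodes Sca1 is not analysed here, so the fractions follow the labels.

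The differences turn on 4 genes that were lower in Sca1+ than in Sca1- cells at both treatments: Elf5, Ehf, Kit and Ltf. The RefSeq promoter table (GRCm38.p6) holds 9 of the 10 genes in 14 windows, without Ehf. The 250 bases before the annotated start of Ltf, Kit and Elf5 are shown because these genes moved together across the fractions; Elf5 has 2 annotated starts. Sequences run 5' to 3' on the gene's strand, and capitals mark the letters AGGAAG, a form of the site bound by ETS factors, the family of Elf5 and Ehf, on either strand. The windows are Ltf at chr9:111019042-111019291 (+), Kit at chr5:75574737-75574986 (+), and Elf5 at chr2:103411848-103412097 (+) and chr2:103423818-103424067 (+).
Ltf: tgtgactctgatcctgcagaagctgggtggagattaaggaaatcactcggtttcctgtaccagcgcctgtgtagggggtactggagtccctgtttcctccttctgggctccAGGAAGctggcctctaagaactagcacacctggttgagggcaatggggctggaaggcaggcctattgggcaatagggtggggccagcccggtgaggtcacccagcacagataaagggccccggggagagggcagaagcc
Kit: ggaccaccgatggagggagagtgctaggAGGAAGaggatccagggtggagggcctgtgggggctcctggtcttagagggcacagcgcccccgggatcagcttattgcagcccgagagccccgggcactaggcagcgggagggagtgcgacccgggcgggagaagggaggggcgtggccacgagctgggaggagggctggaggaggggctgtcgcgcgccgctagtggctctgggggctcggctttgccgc
Elf5, upstream start: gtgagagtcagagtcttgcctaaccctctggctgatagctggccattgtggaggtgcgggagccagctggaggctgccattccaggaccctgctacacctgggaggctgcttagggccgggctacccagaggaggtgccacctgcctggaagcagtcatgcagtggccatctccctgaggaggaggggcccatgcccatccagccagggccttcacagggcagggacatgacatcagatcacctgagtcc
Elf5, downstream start: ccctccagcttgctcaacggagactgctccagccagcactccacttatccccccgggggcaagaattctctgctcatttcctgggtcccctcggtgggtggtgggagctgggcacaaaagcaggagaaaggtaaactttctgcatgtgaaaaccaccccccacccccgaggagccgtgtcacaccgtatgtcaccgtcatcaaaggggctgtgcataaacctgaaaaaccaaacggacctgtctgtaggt

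The letters occurred once in the Ltf window, from 139 bases before the start, and once in the Kit window, from 222 bases before it, and in neither Elf5 window. The table gives Kit a second window that starts 4 bases further on and holds the same match. With overlapping windows of a gene counted once, 6 of 13 windows of the 9 genes held the letters, in Esr1, Kit, Ltf, Pgr and Prlr, and 29.3% of the 30938 windows counted likewise over the whole table, mouse chromosome 18 left out. Among all 32851 windows of the table, without that merging, the share was 29.5%. Other letters searched on both strands were AGATAA for GATA factors (10.0% of all windows), TTCNNNGAA for STAT factors (7.02%), TGTTTAC for forkhead factors (3.17%) and AGGTCA, a partial site of nuclear receptors (14.0%). The Ltf window held AGATAA and AGGTCA once each, and no AGGAAG match in the 14 windows overlapped another of these motifs. A match is a description of letters and not of a bound site.

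Elf5, the ETS factor that specifies alveolar cells, read 4.84 (log2) in untreated Sca1+, 7.02 in untreated Sca1-, 3.32 in dox Sca1+ and 5.02 in dox Sca1- cells. The untreated Sca1- array was the highest, and the dox Sca1+ array lay at the floor. In the Sca1+ fraction the dox array lay at least 2.86-fold below the untreated one, and in the Sca1- fraction 3.98-fold below it. Without dox the Sca1+ array lay 4.52-fold below the Sca1- array, and with dox at least 3.25-fold below it. With a floor at a linear level of 20 the differences that involve the dox Sca1+ array were under 2-fold, at -0.52 (log2) for dox in Sca1+ cells and -0.70 for Sca1 with dox, so Elf5 then no longer passed in both fractions or at both treatments. Its other probe set was at the floor on all arrays except untreated Sca1-, where it read 3.50. The averages of both probe sets were lower in the same comparisons but under 2-fold for dox in Sca1+ cells (-0.76, log2) and for Sca1 with dox (-0.85).

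Ehf, an ETS factor of epithelia, read 8.47, 9.78, 7.18 and 8.30 (log2) in untreated Sca1+ and Sca1- and then dox Sca1+ and Sca1- cells. As for Elf5, the untreated Sca1- array was highest and the dox Sca1+ array lowest. The dox array lay 2.45-fold below the untreated one in Sca1+ cells, and 2.78-fold below it in Sca1- cells. The Sca1+ array lay 2.47-fold below the Sca1- array without dox, and 2.18-fold below it with dox. Of its 3 other probe sets, 1 was at the floor throughout. The remaining probe sets, 1419475_a_at and 1419474_a_at, gave dox differences between -1.34 and -1.03 (log2) and Sca1 differences between -1.08 and -0.73, so their direction was that of the main probe set and the Sca1 size in part under 2-fold.

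Gata3, the zinc-finger factor that maintains luminal differentiation, read 3.90 in untreated Sca1+, 5.43 in untreated Sca1-, 5.22 in dox Sca1+ and 5.56 in dox Sca1- cells (log2). The untreated Sca1+ array stood below the other 3. In Sca1+ cells the dox level was 2.49-fold above the untreated level, against 1.09-fold in Sca1- cells. The Sca1+ level was 2.90-fold below the Sca1- level without dox and 1.27-fold below it with dox. The dox differences of the fractions differed by 1.19 (log2), a value of 4 single arrays with no test. With a floor at a linear level of 20 the difference in Sca1+ cells was 0.89 (log2), since the untreated value lies below that floor.

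Foxa1, the forkhead factor that opens chromatin for the oestrogen receptor, had 1 probe set, and it lay at the floor on all 4 arrays. No Foxa1 difference can be given, and a level under the floor was not detectable on these arrays.

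**Figure D1:**
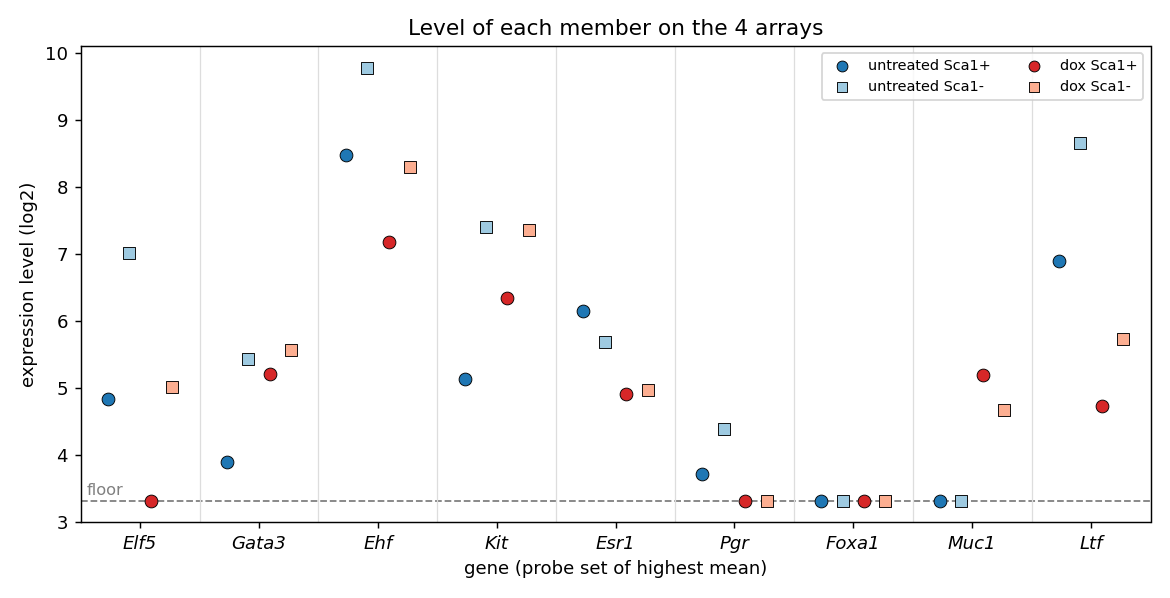
Expression level (log2, vertical axis) of the 9 measured genes, each by its probe set of highest mean; each point is 1 array, circles are Sca1+ and squares Sca1- cells, blue untreated and red dox, and the dashed line is the floor of 3.32. For Elf5, Ehf, Kit and Ltf the squares lie above the circles of the same treatment, and Foxa1 lies at the floor throughout.

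Kit, the receptor tyrosine kinase for stem cell factor and a surface marker of luminal progenitors, read 5.14, 7.40, 6.34 and 7.36 (log2) in untreated Sca1+ and Sca1- and then dox Sca1+ and Sca1- cells. Both Sca1- arrays lay above both Sca1+ arrays. The Sca1+ level was 4.79-fold below the Sca1- level without dox and 2.02-fold below it with dox, the latter only just past 2-fold. The dox level was 2.30-fold above the untreated level in Sca1+ cells, and the difference in Sca1- cells was -0.04 (log2). The other Kit probe set went against this pattern: 1415900_a_at was at the floor on both untreated arrays and read 4.12 in dox Sca1+ and 3.73 in dox Sca1- cells. With both Kit probe sets averaged, the dox differences were 1.00 and 0.19 (log2) and the Sca1 differences -1.13 without and -0.32 with dox, the last under 2-fold. The gene of its ligand, Kitl, read 8.55, 8.21, 9.06 and 8.41 in the same order and was under 2-fold in every comparison.

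Mast cells also carry Kit, so their markers were read beside it. Of 7 mast-cell markers none passed the filter, and 6 were at the floor on all arrays. Their summed linear level was 70 on 3 arrays and 71.9 in dox Sca1- cells, where 70 is what 7 genes at the floor give.

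Esr1, the oestrogen receptor alpha, read 6.14 in untreated Sca1+, 5.68 in untreated Sca1-, 4.91 in dox Sca1+ and 4.96 in dox Sca1- cells (log2). Both dox arrays lay below both untreated arrays. The dox level was 2.35-fold below the untreated level in Sca1+ cells and 1.64-fold in Sca1- cells, and its Sca1 differences were 0.46 without and -0.05 with dox (log2). Its probe set 1435663_at gave -1.44 and -0.82 for dox, and 1421244_at was at the floor on all arrays.

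Pgr, the progesterone receptor and a known target of the oestrogen receptor, was measured above the floor only on the untreated arrays. Its probe set 1439527_at read 3.72 in untreated Sca1+ and 4.39 in untreated Sca1- cells and lay at the floor on both dox arrays. The untreated level therefore stood at least 1.32-fold above the dox level in Sca1+ cells and at least 2.10-fold above it in Sca1- cells. Its 2 other probe sets were at the floor on every array. Pgr passed the filter through its untreated arrays, so a difference in that direction was built into its passing.

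**Figure D2:**
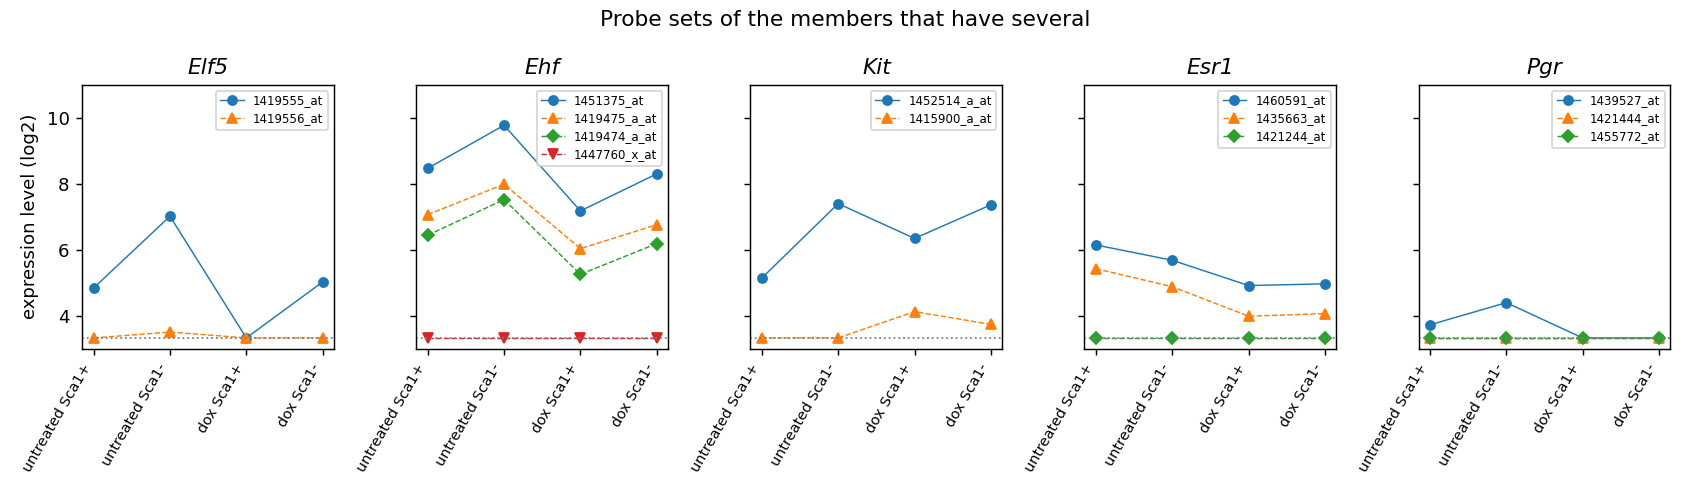
Expression level (log2, vertical axis) on the 4 arrays of every probe set of the 5 genes that have several; solid lines are the probe sets of highest mean, dashed lines the others, and the dotted line is the floor. Lines join the values of 1 probe set and mark no order of the arrays. The 3 Ehf probe sets above the floor run in parallel, while the dimmer Kit probe set is above the floor only with dox.

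Muc1, the transmembrane mucin of the apical luminal surface, was at the floor on both untreated arrays and read 5.19 in dox Sca1+ and 4.67 in dox Sca1- cells (log2). Dox levels were thus at least 3.66-fold above untreated levels in Sca1+ cells and at least 2.55-fold above them in Sca1- cells. With dox the Sca1+ level was 1.44-fold that of Sca1- cells. Muc1 passed the filter through its dox arrays only. Among 10 other mucin genes 3 passed the filter, and Muc15 went the other way, its dox level at least 2.62-fold below the untreated one in Sca1+ cells and 5.08-fold below it in Sca1- cells. It was the 1 of the 3 that was 2-fold lower in both fractions, against 8.56% of all genes. Muc15 passed the filter through its untreated arrays only, so a lower dox level was built into its passing.

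Ltf, lactoferrin, an iron-binding protein of milk, read 6.89 in untreated Sca1+, 8.65 in untreated Sca1-, 4.73 in dox Sca1+ and 5.73 in dox Sca1- cells (log2). Both dox arrays lay below both untreated arrays, and within each treatment the Sca1+ array was the lower. The dox level was 4.49-fold below the untreated level in Sca1+ cells and 7.59-fold in Sca1- cells, the highest folds for dox measured on both sides among the 8 genes analysed. Sca1+ cells had 3.38-fold less than Sca1- cells without dox and 2.00-fold less with dox. Neutrophils also carry Ltf: of 9 neutrophil markers 8 had a named probe set, Ltf included, and Ngp, Camp, Mpo and Cxcr2 were at the floor on all arrays. The summed linear level of the 8 was 192 in untreated Sca1+, 538 in untreated Sca1-, 131 in dox Sca1+ and 233 in dox Sca1- cells, with Ltf and S100a8 holding most of what lay above the floor. Ltf itself made up 119, 402, 26.5 and 53.0 of these sums in the same order, so the sums are no reading apart from Ltf. S100a8, which stressed epithelium also expresses, read 3.77, 6.25, 4.64 and 6.71 (log2) in the same order, so it was lower in Sca1+ cells at both treatments and was not lower with dox. The remaining markers, S100a9 and Elane, were at the floor on both untreated arrays. In dox Sca1+ and dox Sca1- cells S100a9 read 4.63 and 4.35, and Elane 3.93 and 3.87. Both passed the filter through their dox arrays only.

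Counted over the 8 genes that passed the filter, 4 lay 2-fold or more below the untreated level in dox Sca1+ cells (Elf5, Ehf, Esr1 and Ltf), where 12.9% of all genes analysed were, and 3 were higher (Gata3, Kit and Muc1), against 8.47% of all genes. In Sca1- cells 4 were lower (Elf5, Ehf, Pgr and Ltf), against 11.3%, and Muc1 was higher, against 7.2%. In the same direction in both fractions, 3 were lower (Elf5, Ehf and Ltf), against 8.56% of all genes, and Muc1 was higher, against 5.29%. The median dox difference of the 8 was -0.82 (log2) in Sca1+ and -0.89 in Sca1- cells, beside 0.03 and 0.02 for all genes analysed. These counts leave out Prlr and Foxa1, and Pgr and Muc1 passed the filter only through the arrays where they were high. Of the basal markers given above, 3 of 7 were likewise lower with dox in both fractions (Krt5, Acta2 and Mylk). Mylk passed the filter through its untreated arrays only, so a lower dox level was built into its being counted.

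For Sca1, 5 of the 8 were at least 2-fold lower in Sca1+ cells without dox (Elf5, Gata3, Ehf, Kit and Ltf), where 3.33% of all genes were, and none was higher, against 3.07%. With dox 4 were lower (Elf5, Ehf, Kit and Ltf), against 2.98%, and none was higher, against 2.52%. The same 4 were lower at both treatments, against 0.881% of all genes, and none was higher at both, against 1.08%. The medians were -1.42 without and -0.67 with dox, beside -0.01 and -0.03 for all genes. The summed level of the luminal markers, given above, was likewise lower in Sca1+ cells at both treatments, and its part in these differences was not tested. The dox and Sca1 differences are made from the same 4 arrays, so a gene that is high on the untreated Sca1- array enters both. So does a gene that is low on the untreated Sca1+ array, as Gata3 and Kit were. That array had the lowest median of all probe sets (3.48, log2) and the most at the floor (48.0%), and the part of this was not tested. Kit and Ltf with dox, at 2.02-fold and 2.00-fold, lay next to the 2-fold limit. Both were within it, at -0.97 and -0.96, when arrays were centred on bright probe sets, and at -0.94 and -0.95 with quantile normalization, which left 2 genes at both treatments (Elf5 and Ehf).

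**Figure D3:**
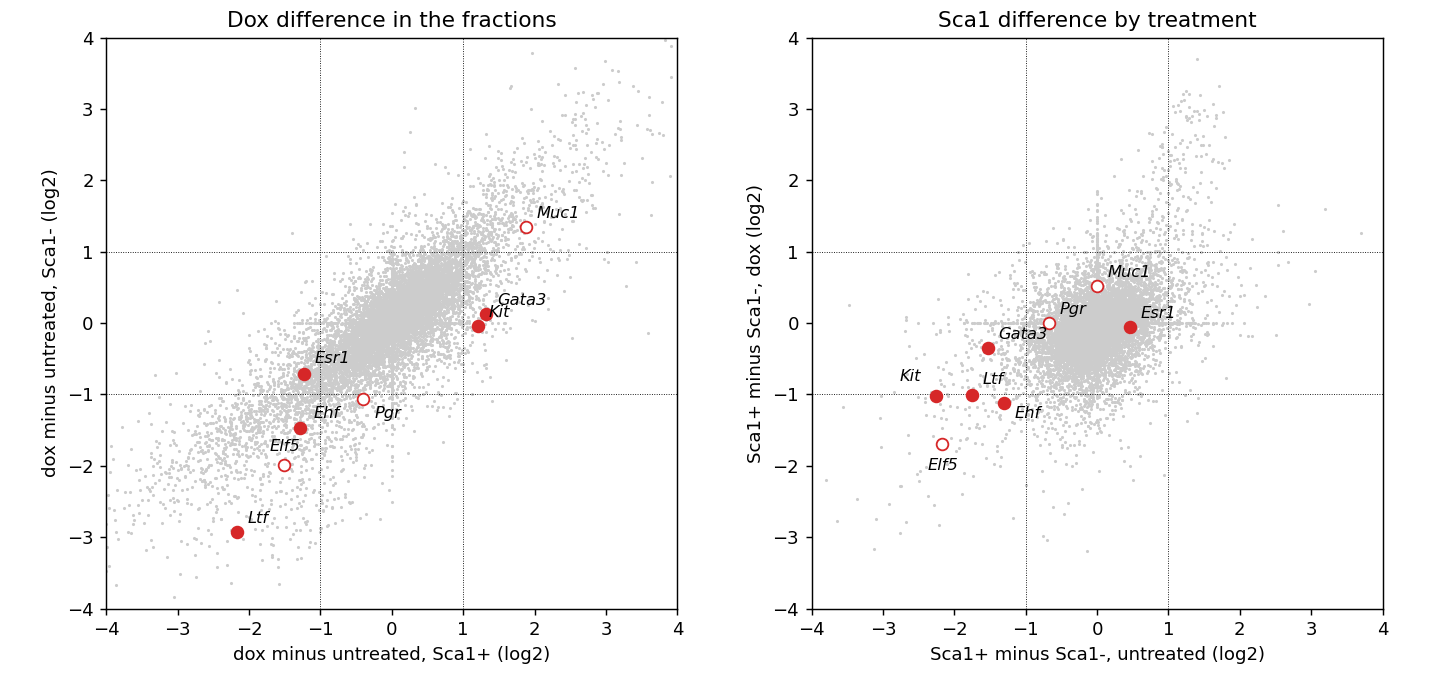
Left, the dox minus untreated difference (log2) in Sca1+ cells against that in Sca1- cells; right, the Sca1+ minus Sca1- difference without dox against that with dox. Grey points are the 12264 genes analysed (66 and 3 of them lie outside the axes), filled red points are the luminal and alveolar genes measured above the floor, open red points those with a floor value in 1 or both of the differences, and dotted lines mark 2-fold. Gata3 and Kit stand to the right of the left panel near 0 on its vertical axis, and Elf5, Ehf, Kit and Ltf lie in the lower left of the right panel.

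An additive limma fit of dox and Sca1 over the 4 arrays, with Benjamini-Hochberg adjustment over 12264 genes, treats the fractions as separate samples. For each gene its residual comes from the difference between the dox differences of the fractions (1.19 for Gata3 and 1.24 for Kit, log2). It is no spread of replicates. The fit leaves 1 residual degree of freedom. At an adjusted p under 0.05 for dox it called 4 of the 8 genes lower, against 21% of all genes, and 1 higher, against 19.7%. The limma dox estimates were -2.55 (SE 0.23, log2; adjusted p = 3.0e-07) for Ltf, -1.38 (SE 0.13; adjusted p = 4.1e-07) for Ehf, -1.75 (SE 0.31; adjusted p = 0.00024) for Elf5 and -0.97 (SE 0.29; adjusted p = 0.012) for Esr1. For Muc1 limma gave 1.61 (SE 0.34; adjusted p = 0.0013), but Muc1 passed the filter only through the dox arrays on which it was above the floor, so a higher dox level was built into its being tested and this p supports nothing. Gata3, Kit and Pgr did not pass (limma adjusted p = 0.10, 0.083 and 0.12). For Sca1 limma called 4 lower, against 3.64% of all genes, and none higher, against 3.87%. These were Ehf at -1.22 (SE 0.13; adjusted p = 1.7e-05), Kit at -1.64 (SE 0.26; adjusted p = 0.00060), Elf5 at -1.94 (SE 0.31; adjusted p = 0.00064) and Ltf at -1.38 (SE 0.23; adjusted p = 0.00091).

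These p-values borrow their spread from other genes and depend on how low genes were treated: without the filter, or with a floor at a linear level of 20, limma called none of these genes for either term, and without the intensity trend none for Sca1. At an unadjusted p under 0.05 the unfiltered limma fit had 3 lower and 1 higher for dox and 2 lower for Sca1, and the fit with the higher floor 3 lower for dox and 1 for Sca1. Without the trend 5 were lower for Sca1 at an unadjusted p.

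The genes around the prolactin receptor were read as a list of 15, of which 12 passed the filter. For dox, 4 of the 12 were lower by 2-fold or more in both fractions, against 8.56% of all genes, and 1 was higher, against 5.29%. The list's medians were -0.13 and -0.22 for dox (Sca1+ fraction, then Sca1- fraction) and -0.31 and -0.20 for Sca1 (without dox, then with it), an order kept for the lists below. Cebpb, a transcription factor of alveolar cells, had dox differences of -3.93 and -1.72. The helix-loop-helix repressor gene Id2 stood at -2.29 and -2.49, and the cytokine-signalling inhibitors Socs2 at -2.56 and -1.99 and Socs3 at -2.57 and -1.63. Jak2, the kinase bound to the prolactin receptor, was the gene that was higher, at 1.08 and 1.06. Stat5a read 5.46, 6.45, 5.17 and 5.36 over untreated Sca1+ and Sca1- and then dox Sca1+ and Sca1- cells, with dox differences of -0.29 and -1.09, and Stat5b had 0.05 and 0.11. Tnfsf11, the RANK ligand gene, did not pass the filter. For Sca1, Id2 was the gene of this list that was 2-fold lower at both treatments (-1.83 and -1.62).

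Of 18 milk and alveolar genes 17 had a named probe set and 8 passed the filter, which 12264 of all 18194 named genes passed. With dox 3 of the 8 were lower by 2-fold or more in both fractions, against 8.56% of all genes, and none was higher, against 5.29%. In Sca1+ cells alone 2 of the 8 were at least 2-fold higher with dox, against 8.47% of all genes: Csn1s1 (at least 2.31-fold) and Wfdc18 (2.36-fold). The medians were -0.29 and -1.32 for dox and -0.85 and -0.08 for Sca1. Btn1a1 passed the filter through the untreated Sca1- array only, so lower levels against that array were built into its entering these medians. The lipid-droplet gene Plin2 had dox differences of -2.37 and -1.82 (log2), Xdh, which acts in milk-fat secretion, -2.59 and -1.53, and the milk-fat globule gene Mfge8 -1.41 and -2.07. Csn1s1, a casein gene, was at the floor in untreated Sca1+ cells and at 3.87, 4.53 and 4.54 in untreated Sca1-, dox Sca1+ and dox Sca1- cells. None of this list was 2-fold different between the fractions at both treatments.

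Of 20 hormone-sensing genes 14 passed the filter, and 5 of these had dox levels 2-fold or more below the untreated ones in both fractions, against 8.56% of all genes, with none above, against 5.29%. The medians were -0.63 and -1.15 for dox and 0.03 and -0.08 for Sca1. For dox, Wnt4, a progesterone-induced ligand, had -3.10 and -2.00 (log2), Greb1, an oestrogen-receptor target, at least -3.09 and -1.92 (both dox arrays at the floor), Tfap2c, an AP-2 factor, -2.48 and -2.17, and Myb -2.53 and -1.55. Esr1 stood at -1.23 and -0.72, the second under 2-fold. Greb1 passed the filter through its untreated arrays only, so a lower dox level was built into its being counted. For Sca1, none of the 14 was 2-fold different at both treatments. Without dox, 3 were at least 2-fold lower in Sca1+ than in Sca1- cells and 2 were higher, against 3.33% and 3.07% of all genes, and 7 of the 14 lay below 0 and 7 above. The lower genes were Prom1 (-2.69, log2), Stc2 (-1.29) and Cited1 (at least -1.25), and the higher ones Wnt4 (1.27) and Greb1 (1.16). Prom1 and Cited1 passed the filter through the untreated Sca1- array only, so a lower untreated Sca1+ level was built into their being counted. Esr1 stood at 0.46 and Pgr at -0.67 in the comparison without dox.

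Of 15 luminal progenitor genes 11 passed the filter, and 4 of the 11 were at least 2-fold lower in Sca1+ cells at both treatments and none higher, against 0.881% and 1.08% of all genes. The additive limma fit called 7 of the 11 lower and 1 higher for Sca1 at an adjusted p under 0.05, against 3.64% and 3.87% of all genes. Kitl (0.34 without and 0.66 with dox, log2) and the integrin gene Itga2 (at least 0.67, and 0.73) lay above 0 at both treatments, under 2-fold. The medians were -0.74 and -0.62 for dox and -0.69 and -0.89 for Sca1. Lcn2, lipocalin, stood at -2.14 without and -4.86 with dox (log2), the lipopolysaccharide-binding genes Lbp at -2.40 and -2.01 and Cd14 at -2.65 and -1.56, and Aldh1a3, a retinaldehyde dehydrogenase, at -2.17 and -1.47. For dox, Lcn2 (-4.66 in Sca1+, -1.94 in Sca1-), Cd14 (-2.31 and -3.39), the protease inhibitor gene Slpi (-3.12 and -2.05) and Lbp (-1.71 and -2.11) lay 2-fold or more below untreated cells in both fractions, 4 of the 11 against 8.56% of all genes.

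Of 12 genes of luminal structure 11 passed the filter. At both treatments 4 of them were at least 2-fold lower in Sca1+ cells, against 0.881% of all genes, and 4 were lower with dox in both fractions, against 8.56%. The medians were -0.84 and -0.79 for dox and -1.20 and -0.74 for Sca1. The keratin gene Krt7 had Sca1 differences of -2.37 and -2.42 (log2), the claudin gene Cldn7 -1.90 and -2.40, Krt8 -1.69 and -1.46 and Cldn4 -1.20 and -1.38, and these were also the 4 genes lower with dox. Epcam, Cdh1 and Cd24a, surface proteins of epithelium at large, were under 2-fold in all Sca1 differences.

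Relatives of the transcription factors of this set were read as lists too, to be set beside 8.56% lower and 5.29% higher among all genes for dox in both fractions and 0.881% and 1.08% for Sca1 at both treatments. Of 13 other ETS-family genes analysed (medians -0.10 and -0.10 for dox, 0.12 and -0.06 for Sca1), none was 2-fold different in the same direction in both fractions or at both treatments, and Elf3 read 4.35, 5.07, 4.27 and 3.86 over untreated Sca1+ and Sca1- and then dox Sca1+ and Sca1- cells. Among 10 other Fox and Gata genes (medians -0.33 and -0.59 for dox, -0.22 and -0.06 for Sca1), Foxi1 was lower with dox (at least -1.27 in Sca1+, -3.29 in Sca1-) and lower in Sca1+ cells (-3.03 without dox, at least -1.02 with it), and Foxc1 was lower with dox (-2.08 and -1.04). Among 12 other nuclear receptors (medians -0.05 and 0.09 for dox, 0.12 and 0.04 for Sca1), the retinoid receptor gene Rxra was lower with dox (-2.25 and -1.28), the 1 gene of the 12 and thus a share near that of all genes, and none was 2-fold different between the fractions at both treatments.

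**Figure D4:**
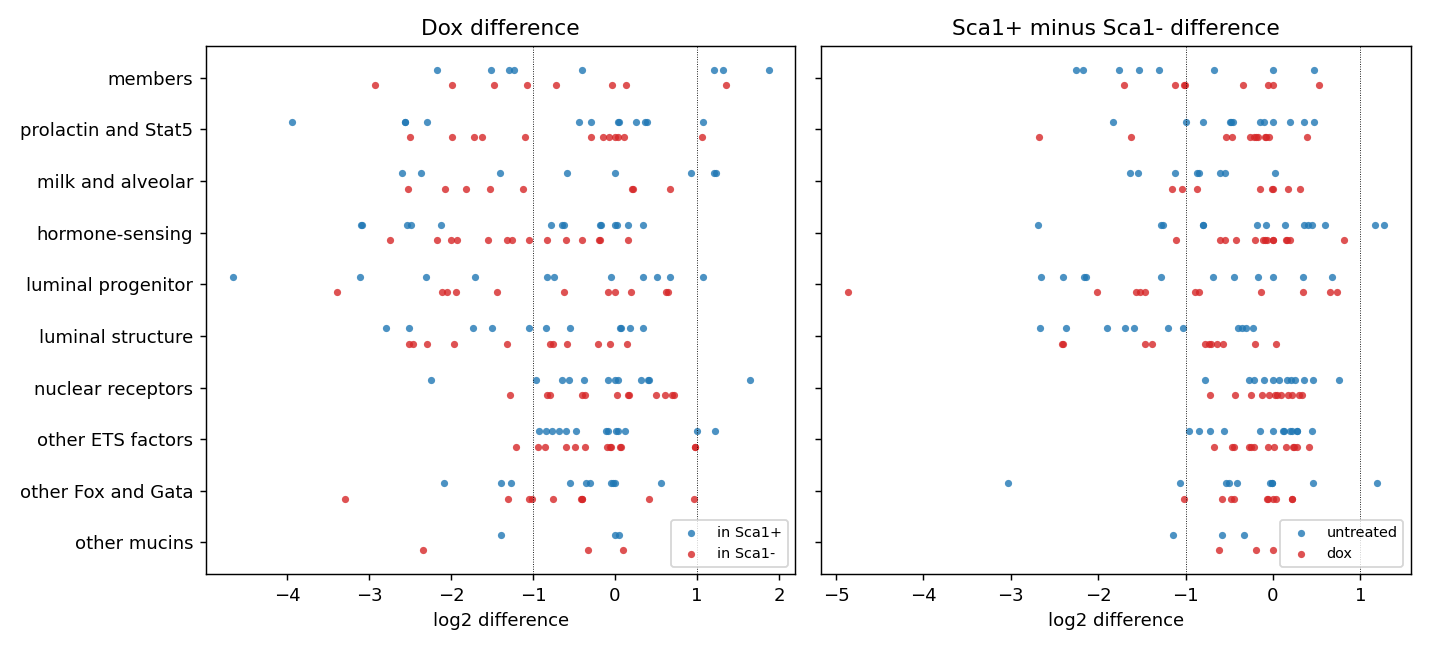
Log2 differences of the genes that passed the filter, by gene list (rows); left, dox minus untreated in Sca1+ (blue) and Sca1- cells (red); right, Sca1+ minus Sca1- in untreated (blue) and dox-treated cells (red). Each point is 1 gene and dotted lines mark 2-fold. On the right, the luminal progenitor and luminal structure rows reach far below -1. So do genes of other rows, among them Foxi1 (-3.03, untreated), Prom1 (-2.69, untreated), Cebpb (-2.67, dox) and Kit (-2.26, untreated). The nuclear receptors and other ETS factors lie between -1 and 1.

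By the distance between gene-centred levels over the 4 arrays, among 10261 genes above the floor throughout, the gene nearest to Ltf was Id2 (distance 0.47, log2), then Nrarp (0.49). Nearest to Ehf were C730049O14Rik (0.14) and Gpd1l (0.14), to Kit Tgfb3 (0.24) and Cox7a1 (0.33), to Gata3 Get1 (0.17) and Ak3 (0.19), and to Esr1 Pms1 (0.076) and Ppp1r13l (0.086). With 4 arrays such likeness is a description of these levels and no more.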

How the data were processed

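The deposited table holds log2 expression levels of 45101 probe sets on 4 arrays, 1 for each combination of dox and Sca1. Per the labels' protocols, biotin-labelled cRNA was made with an Affymetrix 3' IVT kit, which primes at the 3' end of transcripts; how the authors summarized and scaled the probes is not stated in the labels. A platform annotation named 35890 probe sets, 34958 with 1 symbol, 932 with several (not used), and left 9211 unnamed. Symbols were updated through a mouse gene table of GRCm38.p6.

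Each gene took its probe set of highest mean (18194 genes) and was analysed when at least 1 array reached 3.63, the pooled median of all probe sets (12264 genes). Differences of log2 levels were counted at 2-fold. limma 3.58.1 (R 4.3.3) fitted dox and Sca1 as main effects with an intensity trend in eBayes. The fit was also run on simulated arrays with independent noise, whose spread came from the same residuals that the fit uses. That run therefore cannot show whether these residuals measure replicate variation. The number of arrays limits the precision. Alternatives concerned the probe set per gene, floor, scaling, filter, size rule and trend. Named genes are the 10, up to 4 of each list with the highest mean difference among those 2-fold the same way in both differences, direct partners (Kitl, Jak2, Stat5a, Stat5b, Tnfsf11), and the 2 nearest by likeness. Csn1s1, Wfdc18, Btn1a1, Prom1, Stc2, Cited1, Itga2, Elf1, Elf3, Spib, S100a8, S100a9 and Elane were named after their values were seen. So were Krt5, Acta2, Mylk, Cd68, Dcn and the epithelial surface genes. Bcl11b is named for the series title, and other cell-type markers where they lay at the floor on all arrays. The genes and lists were chosen with earlier results of these data known.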

Additional observations from a re-analysis of the deposited data

Results flagged for a closer look

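For Kit, the dox minus untreated difference was 1.20 (log2) among Sca1+ cells, while among Sca1- cells the difference was -0.04, next to 0; with both Kit probe sets averaged the latter was 0.19, on the same side of 0 as in Sca1+ cells. The Sca1+ minus Sca1- difference of Esr1 was 0.46 without and -0.05 with dox. The signs differed within each pair, but 1 of its values lay next to 0. The difference between the values was not tested, and each rests on single arrays.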

How the results depend on the processing

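The labels carry no replicate numbers to pair the arrays by; the additive limma fit compares the fractions within each treatment and the treatments within each fraction. With 1 array a group, no replicate could be left out. Of the recomputed counts of the luminal and alveolar genes, 124 stayed within 1.5 times the reported count and 32 did not, and no gene past 2-fold or an adjusted p of 0.05 changed direction. With the probe sets of a gene averaged, 1 gene (Ltf) was at least 2-fold lower in each of dox in Sca1+ cells, dox in both fractions, Sca1 with dox and Sca1 at both treatments, and the limma fit called 0 lower for Sca1 (5 at an unadjusted p under 0.05). With the floor at a linear level of 20, Elf5 was under 2-fold for dox in Sca1+ cells (-0.52, log2) and for Sca1 with dox (-0.70), which left 2 genes lower with dox in both fractions and 3 lower for Sca1 at both treatments, 1 gene (Kit) was higher with dox in Sca1+ cells and 0 in Sca1- cells or in both fractions, and limma called 0 lower or higher for dox and 0 for Sca1. Centring on bright probe sets (mean level at least 100), and quantile normalization, each left 2 genes (Elf5 and Ehf) lower for Sca1 with dox and 2 at both treatments. Among genes above the floor on all arrays, 5 remained to be counted, with 2 lower and 0 higher with dox in Sca1- cells, 0 higher in both fractions and 0 higher for dox in limma. Without the filter, limma called 0 lower or higher for dox and 0 for Sca1, and without the trend 0 for Sca1. At 3-fold, dox in Sca1+ cells had 1 lower (Ltf) and 1 higher (Muc1), dox in Sca1- cells 2 lower (Elf5 and Ltf) and 0 higher, both fractions 1 lower (Ltf) and 0 higher, Sca1 without dox 3 lower (Elf5, Kit and Ltf), and Sca1 with dox and both treatments 1 lower each (Elf5). Centring each array on its overall median shifted the median of all genes from 0.03 to -0.16 for dox in Sca1+ cells and from -0.01 to 0.21 for Sca1 without dox, and moved the share of higher genes among all genes past 2-fold from 39.7% to 27.3% and from 48.0% to 70.0%; it moved the share at both treatments from 55.0% to 65.8%, and no count of the luminal and alveolar genes moved by over 1.5 times. For all genes, limma's calls for Sca1 went from 447 lower and 475 higher to 0 and 0 without the trend (922 and 757 at an unadjusted p under 0.05), and for dox from 2580 and 2413 to 0 and 0 without the filter (1916 and 2236 unadjusted). The cause was not tested. The floor limits Elf5, Pgr, Muc1 and Foxa1 to bounds on at least 1 array.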
